A study of Mus musculus with 4 samples.

Results

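Heat shock chaperones were followed across the RNA-seq libraries: Hspa1a, Hspa1b, Hspa8, Hsph1, Hsp90aa1, Hsp90ab1, Dnajb1, Dnaja1, Hspe1 and Hspd1. They were found by symbol in the deposited table of raw counts, which held all 10 of them among 24061 gene rows, and all 10 were among the 13022 genes that passed the filter on low counts. The 10 genes were selected on their high CPM in 1 library, the one labelled flox 2, as earlier results of the same data showed it. Values that set flox 2 against the other libraries are therefore a description and were given no test. The RNA came from effector regulatory T cells (CD4-positive, FoxP3-positive and CD62L-negative) sorted from Peyer's patches, the lymphoid follicles of the small intestine, at about 40000 cells per sample.

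The libraries flox 1 and flox 2 were labelled as Maf flox/flox with FoxP3-YFP-cre, and wt 1 and wt 2 as wild type, Maf +/+ with the same FoxP3-YFP-cre (n = 2 each). All mice were 13 weeks old on a C57BL/6 background at the fifth backcross generation, and their housing excluded Helicobacter hepaticus. Both groups thus carried the Cre recombinase and yellow fluorescent protein, which are expressed with Foxp3 in regulatory T cells. Nothing in the labels ties a library to its own animal or says whether mice were pooled, so the spread between libraries may be technical in part.

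Gene totals were 20809399 counts in flox 2, 24687897 in flox 1, 21148345 in wt 1 and 19368745 in wt 2. Maf, the targeted gene, had 15 counts in flox 2, 2975 in flox 1, 3071 in wt 1 and 40 in wt 2. Maf thus went against the labels of flox 1 and wt 2. Each library is called by its label throughout, and a direction for flox against wt is one between labels only. Foxp3 stood at 91.0 to 104 CPM (read counts scaled to a common library size by the TMM method) and Cd4 at 920 to 998 CPM in the 4 libraries. Ddx3y, on the Y chromosome, had 4525 to 7126 counts and Xist at most 11, in each library.

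Heat shock proteins are chaperones that bind unfolded or newly made proteins and help them fold. HSP70 proteins hold client chains, J-domain proteins (HSP40) deliver clients and stimulate the HSP70 ATPase, and HSP110 proteins exchange the nucleotide. HSP90 proteins act later on signalling clients such as kinases and steroid receptors, and HSP60 with HSP10 forms the folding chamber of mitochondria. Some of these genes are expressed in most cells at all times, and others are kept low and induced by heat and other stresses through the transcription factor HSF1. HSF1 binds heat shock elements, which are inverted repeats of the triplet GAA.

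The paired form of this repeat was looked for in the promoters, and stretches that hold it are shown for 1 gene of each class in which it was found. RefSeq windows (GRCm38.p6, from 250 bases before to 50 after a start site) were matched by symbol for 7 of the 10 chaperones, namely Hspa1a, Hspa1b, Hsph1, Dnajb1, Dnaja1, Hspe1 and Hspd1. Windows for Hspa8, Hsp90aa1 and Hsp90ab1 were not used here. Capitals mark the cores GAANNTTC and TTCNNGAA, each of which is its own reverse complement, and positions are counted from the start site of the window. Each stretch runs 5′ to 3′ on the strand of the gene.
Hspa1a, chr17:34972217-34972296, minus strand, -140 to -61: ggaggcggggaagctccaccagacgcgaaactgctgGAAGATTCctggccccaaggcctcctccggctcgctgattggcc
Hsph1, chr5:149636348-149636377, minus strand, -41 to -12: tagaatctTTCTCGAAggctcgagaagaag
Hspe1, chr1:55088048-55088077, plus strand, -100 to -71: gccacggtccgTTCTAGAACCTTCCGGAAg
Dnaja1, chr4:40722333-40722362, plus strand, -135 to -106: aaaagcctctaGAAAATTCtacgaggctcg

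At least 1 core was present in 6 of the 7 chaperone genes with a window (85.7%), against 17.0% of the 27025 genes with any window. The longer run GAANNTTCNNGAA or TTCNNGAANNTTC, in which a core is followed by its first triplet again, overlaps the cores and was searched after the sites had been seen. It was present in Hsph1, Hspe1 and Hspd1, 3 of 7 genes (42.9%), against 0.662% of all genes. In Hsph1 the run lies after the start site, from base 37 in the window of the printed stretch, and is not in that stretch. The chaperone genes are not independent sequences. Hspe1 and Hspd1 are divergent neighbours on chromosome 1, and the 3 overlapping cores printed for Hspe1 are the same bases as the cores that start at -144, -139 and -134 in a window of Hspd1. The printed stretch of Hspa1a is identical in Hspa1b at chr17:34959299-34959378, and the 250 bases before the start site differ between both genes at 3 positions. Dnajb1 had neither core in its 2 windows. The box CCAAT, searched on both strands, was in 6 of the 7 genes, against 41.1% of all genes. A match is a description of the letters in these windows and not evidence of binding.

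All 10 chaperones were highest in the library labelled flox 2. In that library, 6 of the 10 were at least 2-fold above each of the other 3 libraries, 4 were at least 3-fold above and 10 were at least 1.5-fold above. Among all 13022 genes the same counts came to 26.1% highest in flox 2, 0.637% past 2-fold, 0.177% past 3-fold and 1.95% past 1.5-fold. The rule that chose the chaperones used this contrast, and nothing is read from the comparison of these shares. Every ratio of flox 2 to another library was larger than the ratio of the highest to the lowest of the other 3 libraries for the same gene. With 1 library on one side there is no replicate check, and the intervals below (95%, exact binomial for a ratio of counts) cover counting error only.

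**Figure D1:**
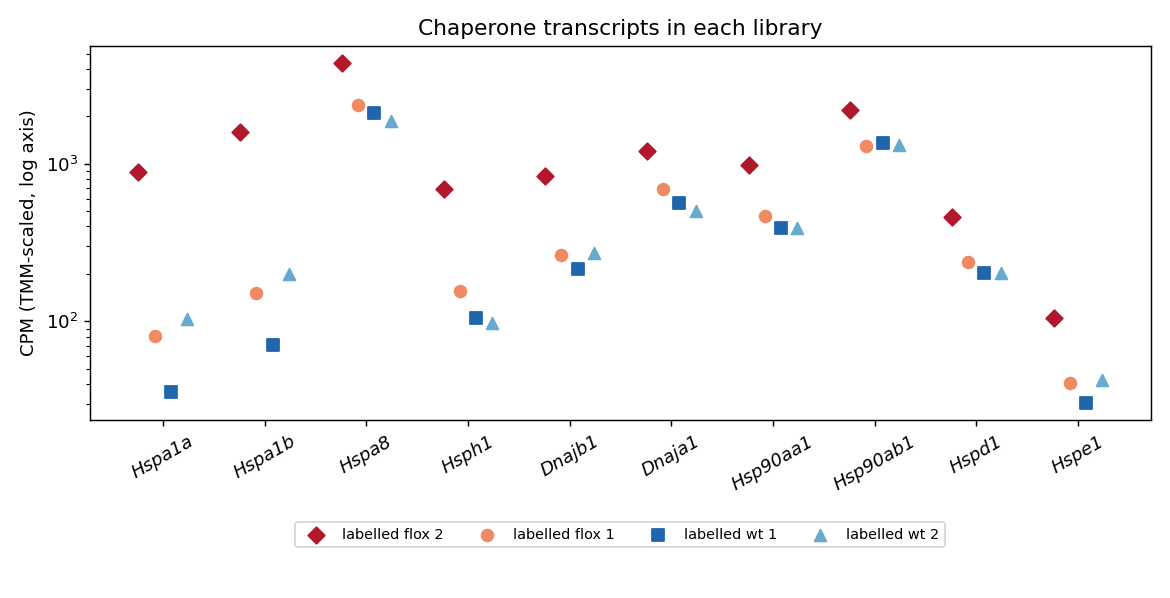
Level of each chaperone in each library, in CPM on a log axis; each point is 1 library, with the libraries labelled flox left of those labelled wt. The library labelled flox 2 is highest for all 10 genes, with the widest gap for Hspa1a (892 CPM, against 35.5 to 103 CPM in the other 3) and the narrowest for Hsp90ab1 (2179 CPM, against 1292 to 1354 CPM).

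The stress-inducible HSP70 genes differed most. Hspa1a (chromosome 17, 34969190 to 34972156, minus strand, mm10) had 892 CPM in flox 2, against 80.9 in flox 1, 35.5 in wt 1 and 103 in wt 2. Hspa1b (chromosome 17, 34956436 to 34959238, minus strand), its neighbour, had 1594 CPM in flox 2, against 151 in flox 1, 71.2 in wt 1 and 199 in wt 2. Flox 2 was far above the other 3 for both genes, and wt 1 was the lowest. For Hspa1a the ratio of flox 2 was 11.0 to flox 1 (interval 10.5 to 11.6), 25.1 to wt 1 (23.3 to 27.1) and 8.65 to wt 2 (8.26 to 9.05). Of all tested genes, Hspa1a ranked 1 and Hspa1b ranked 2 by the smallest of the 3 ratios. The coding sequences of this pair are 99.5% identical (10 differences in 1926 aligned positions), so how reads were divided between them is uncertain. Their ratio of counts, Hspa1a over Hspa1b, was nearly even across libraries, at 0.559 in flox 2, 0.536 in flox 1, 0.499 in wt 1 and 0.519 in wt 2.

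Hspa8 and Hsph1 complete the cytosolic HSP70 machinery among the members. Hspa8 (chromosome 9, 40800984 to 40810087, plus strand) encodes HSC70, the constitutive HSP70, and had 4359 CPM in flox 2, against 2375 in flox 1, 2104 in wt 1 and 1878 in wt 2. Its ratios were thus much smaller, from 1.84 to flox 1 (1.82 to 1.85) up to 2.32 to wt 2 (2.29 to 2.35). Hsph1 (chromosome 5, 149614287 to 149636376, minus strand) encodes HSP110, the exchange factor of HSP70, and had 691 CPM in flox 2, against 156 in flox 1, 104 in wt 1 and 98.0 in wt 2. By ratio it came after Hspa1a and Hspa1b, at 4.43 times flox 1 (4.27 to 4.59), 6.62 times wt 1 (6.33 to 6.93) and 7.05 times wt 2 (6.72 to 7.39).

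Per length, Hspa8, Hspa1b and Hspa1a kept this order, high to low, in all 4 libraries. Divided by the length of the longest protein-coding transcript in GENCODE M21, which may not be the annotation the authors used, Hspa8 had 1821 CPM per kb in flox 2, against 992 in flox 1, 879 in wt 1 and 785 in wt 2. On the same scale Hspa1b had 569 CPM per kb in flox 2, against 53.9 in flox 1, 25.4 in wt 1 and 71.0 in wt 2, and Hspa1a had 301, against 27.3, 12.0 and 34.8 in the same libraries. Hspa8 stayed the most abundant of the 10 in every library. Hspa1a was the lowest of the 10 per length in wt 1 and in flox 1, and Hsph1 was the lowest in wt 2. In flox 2 the lowest was Hspe1 at 136 CPM per kb.

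Both J-domain members were also highest in flox 2, to different degrees. Dnajb1 (chromosome 8, 83608193 to 83612653, plus strand), the inducible HSP40, had 831 CPM in flox 2, against 265 in flox 1, 215 in wt 1 and 271 in wt 2. It was 3.13 times flox 1 (3.04 to 3.22), 3.86 times wt 1 (3.73 to 3.99) and 3.07 times wt 2 (2.98 to 3.17). Dnaja1 (chromosome 4, 40722150 to 40737149, plus strand), a J-domain protein that is abundant without stress, had 1207 CPM in flox 2, against 694 in flox 1, 566 in wt 1 and 504 in wt 2. Its ratios ran from 1.74 (1.71 to 1.77) to 2.40 (2.34 to 2.45), and flox 1 was the closest library.

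The HSP90 pair showed the same split between its inducible and constitutive gene. Hsp90aa1 (chromosome 12, 110690605 to 110702728, minus strand), the stress-inducible form, had 980 CPM in flox 2, against 466 in flox 1, 390 in wt 1 and 394 in wt 2, which is 2.10 to 2.51 times as high. Hsp90ab1 (chromosome 17, 45567775 to 45573271, minus strand), the constitutive form, had 2179 CPM in flox 2, against 1292 in flox 1, 1354 in wt 1 and 1306 in wt 2. Its ratios of 1.61 to 1.69 were the smallest of the 10, while the other 3 libraries were within a factor of 1.05 of each other. The coding sequences of this pair are 76.4% identical.

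The mitochondrial chaperonin genes lie head to head and had a like pattern. Hspd1 (chromosome 1, 55077835 to 55088243, minus strand) encodes HSP60 and had 458 CPM in flox 2, against 238 in flox 1, 203 in wt 1 and 204 in wt 2. Hspe1 (chromosome 1, 55088132 to 55091307, plus strand) encodes HSP10 and had 105 CPM in flox 2, against 40.9 in flox 1, 30.4 in wt 1 and 42.4 in wt 2. Flox 2 was 1.92 to 2.26 times the other libraries for Hspd1 and 2.48 to 3.46 times for Hspe1. By the smallest ratio, Hsp90aa1 (2.10) was the member just above 2-fold and Hspd1 (1.92) the one just below.

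**Figure D2:**
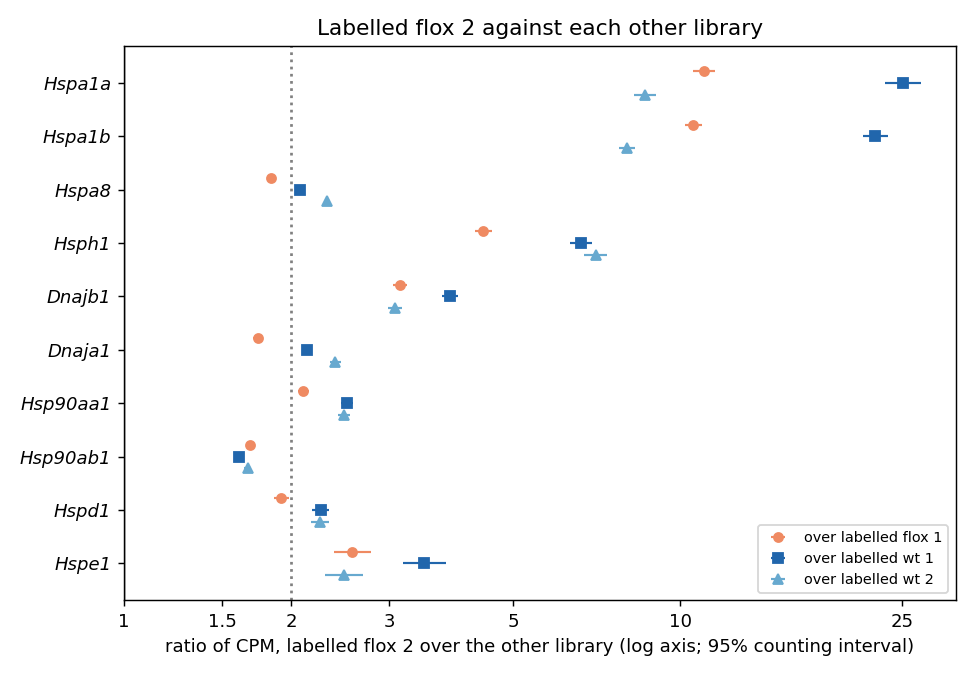
Ratio of CPM in the library labelled flox 2 over each other library, on a log axis, with 95% intervals for counting error; the dotted line marks 2-fold. All 30 ratios lie above 1, from 1.61 for Hsp90ab1 over wt 1 to 25.1 for Hspa1a over wt 1.

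Together the 10 chaperones took up 1.32% of all gene counts in flox 2 (exact binomial interval 1.32 to 1.33), against 0.570% in flox 1, 0.493% in wt 1 and 0.522% in wt 2. Hspa1a and Hspa1b made up 18.7% of the chaperone counts in flox 2, against 4.03% in flox 1, 2.10% in wt 1 and 6.04% in wt 2. Without the 100 genes of the highest mean count, which include 2 of the chaperones, the share was 0.814% in flox 2, against 0.252%, 0.192% and 0.227% in flox 1, wt 1 and wt 2.

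**Figure D3:**
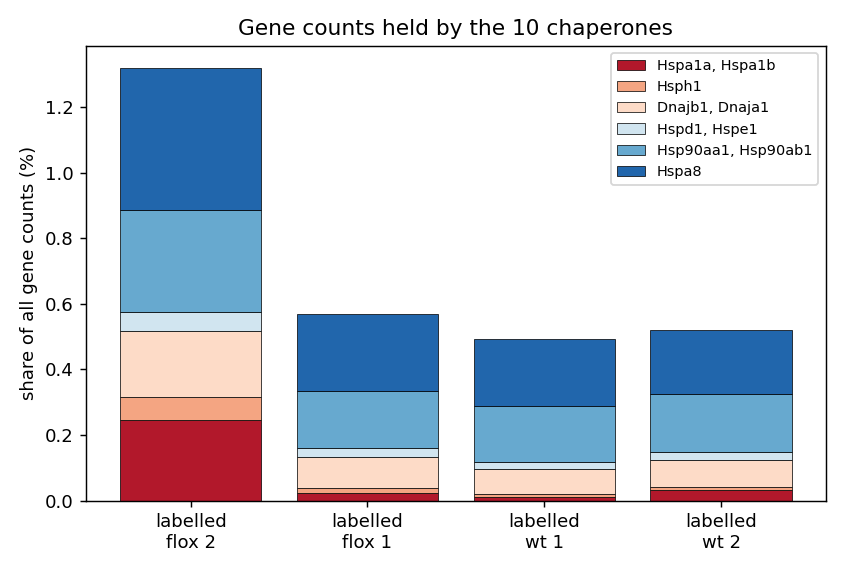
Share of all gene counts held by the 10 chaperones in each library, in percent, stacked by gene or pair. The bar of the library labelled flox 2 reaches 1.32%, and those of the other 3 reach 0.493% to 0.570%.

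The library labelled flox 2 did not stand apart by the number of genes that differed. It was at least 2-fold higher than each other library for 83 genes and at least 2-fold lower for 274. The same counts were 127 and 77 for flox 1, 19 and 352 for wt 1, and 92 and 137 for wt 2. Only 14 of the 83 genes averaged a log2 CPM of 3 or more, and 6 of these 14 were chaperones. Since the chaperones were chosen for high values in flox 2, nothing is read from their number here. Pearson correlations of log2(CPM + 1) over all tested genes, which are not independent replicates, were 0.979 for flox 2 with flox 1, 0.977 with wt 1 and 0.986 with wt 2, against 0.988 between flox 1 and wt 1.

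The order of the libraries was opposite to that for Maf in some chaperones and not in others. Maf was lowest in flox 2, at 0.725 CPM, then 1.98 CPM in wt 2, 122 CPM in flox 1 and 149 CPM in wt 1. Hspa1a, Hspa1b, Dnajb1 and Hspe1, 4 of the 10, ran in the reverse of that order, so that wt 2 came next after flox 2. First place for flox 2 follows from the choice of genes. The share of all tested genes in this order was not counted, and nothing is read from the 4. Levels in wt 2 and flox 1 were close for Dnajb1 (271 and 265 CPM) and Hspe1 (42.4 and 40.9 CPM). The gap between flox 2 and wt 2 was still 8.65-fold for Hspa1a and 3.07-fold for Dnajb1. The other 6 did not run in that order, and wt 2 had the lowest level of Hspa8, Hsph1 and Dnaja1 of the 4 libraries. Within the libraries of high Maf, flox 1 and wt 1, Hsph1 had 156 CPM in flox 1 and 104 CPM in wt 1, and Hsp90ab1 had 1292 CPM in flox 1 and 1354 CPM in wt 1.

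By genotype label, 0 of the 10 chaperones passed edgeR's quasi-likelihood test (Benjamini-Hochberg adjusted p under 0.05 over all tested genes), and 1 of them, Dnaja1, had an unadjusted p under 0.05. DESeq2, edgeR's likelihood ratio test and limma-voom also called 0 of the 10. Over all genes 1 was called (0.00768%), which was not a chaperone, and 258 (1.98%) had an unadjusted p under 0.05, 1.31% of all genes with a higher value in flox. Hspa1a averaged 486 ± 573 CPM in libraries labelled flox and 69.3 ± 47.8 CPM in those labelled wt (SD, n = 2 each), a log2 fold change of 2.81 (SE 1.41, edgeR adjusted p = 1.00). For Hsph1 the log2 fold change was 2.07 (SE 0.77), for Dnajb1 1.17 (SE 0.58) and for Hsp90ab1 0.38 (SE 0.26), each with an adjusted p = 1.00 by edgeR. In 5 of the 10 genes both libraries labelled flox lay above both labelled wt, and the other 5 overlapped. Among all tested genes 13.2% lay above in this way. The median log2 fold change of the 10 was 0.94, against 0.00 over all tested genes. Since the 10 were chosen for high values in flox 2, 1 of the 2 libraries labelled flox, these counts and this median follow in large part from the choice, and nothing is read from them.

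Without the library labelled flox 2, on whose high values the genes were chosen, the differences were small. The libraries that were left had entered that choice as comparators, so this contrast is not wholly free of it. Flox 1 was then set against wt 1 and wt 2, with the lone library assumed to vary like the wt pair. None of the 10 was called by edgeR's quasi-likelihood test, as was none of the 13575 genes tested (0%), and DESeq2 also called 0 of the 10. Hsph1 was the 1 member with an unadjusted p under 0.05, beside 202 of all genes (1.49%). Its log2 fold change was 0.63 (SE 0.14, edgeR adjusted p = 1.00). Hspa1a had 0.22 (SE 0.75), Hspa1b 0.16 (SE 0.72) and Dnajb1 0.13 (SE 0.20), and Hsp90ab1 had -0.04 (SE 0.17). The wt pair itself was far apart for Hspa1a, with 35.5 CPM in wt 1 and 103 CPM in wt 2. Flox 1 lay above both wt libraries for 5 of the 10 genes, a position that 29.6% of all tested genes also held. The median log2 fold change of the 10 was 0.23, against -0.003 over all genes tested.

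**Figure D4:**
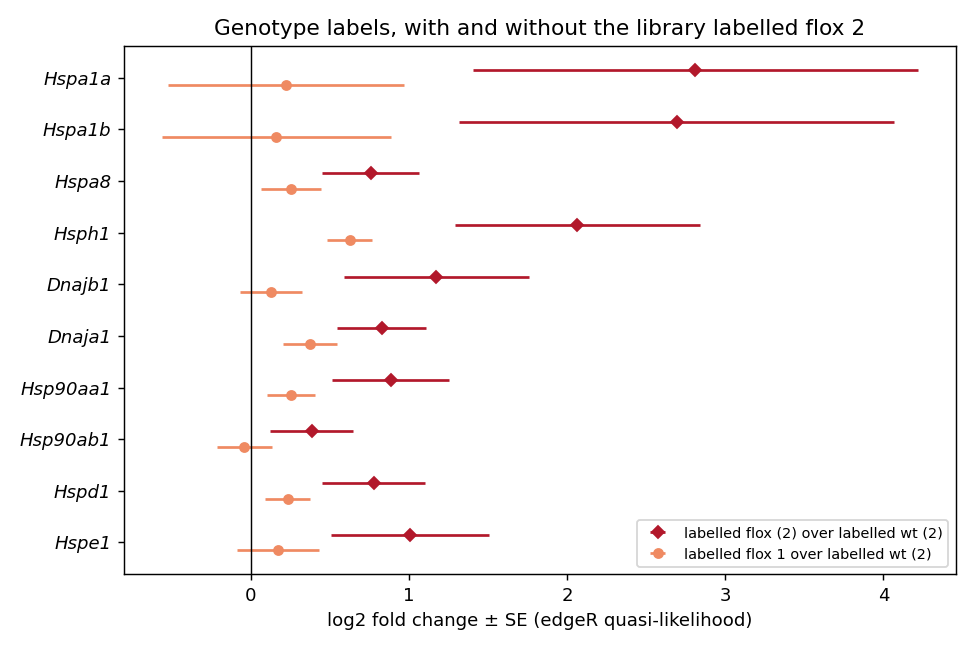
Log2 fold change between genotype labels for each chaperone, with the standard error from edgeR, from all 4 libraries (diamonds) and without the library labelled flox 2 (circles). Hspa1a lies at 2.81 with that library and at 0.22 without it, and Hsp90ab1 lies at 0.38 and -0.04.

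Related genes were described from 13 further lists of chaperones and stress genes, of which 162 genes were not members and were tested. Only 5 of these, Hspa2, Bag3, Dnaja4, Ahsa2 and Ahsa1, were at least 1.5-fold higher in flox 2 than in each other library, and 157 were not. By label 0 of the tested genes in these lists were called by edgeR's quasi-likelihood test. An unadjusted p under 0.05 was found for 3 of 7 HSP70 and HSP110 genes, 2 of 28 J-domain genes, and 1 gene each among HSP90 cochaperones, mitochondrial chaperones and the unfolded protein response. Among all tested genes 1.98% had such a p. Flox 2, the library on which the members were chosen, is part of this contrast, and nothing is read from these counts.

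The genes that resembled the members belonged to the cytosolic HSP70 and HSP90 systems. Hspa2, an HSP70 gene best known from the testis, had 79.5 CPM in flox 2, against 39.5 in flox 1, 33.3 in wt 1 and 25.3 in wt 2. Bag3, an HSP70 exchange factor that HSF1 induces, had 117 CPM in flox 2, against 57.4, 57.3 and 46.7 in flox 1, wt 1 and wt 2. Both were thus just over 2-fold higher in flox 2 than in the closest library. Dnaja4, a J-domain protein, had 214 CPM in flox 2, against 112 in flox 1, 94.9 in wt 1 and 79.5 in wt 2. Its promoter window held 2 cores, the first of them shown here with the same use of capitals.
Dnaja4, chr9:54699458-54699487, plus strand, -101 to -72: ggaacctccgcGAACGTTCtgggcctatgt

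Among cochaperones of HSP90, Ahsa1, which activates its ATPase, had 191 CPM in flox 2, against 125 in flox 1, 117 in wt 1 and 111 in wt 2. Ahsa2, a relative of Ahsa1, had 97.2 CPM in flox 2, against 58.0, 52.6 and 48.5 in flox 1, wt 1 and wt 2. Stip1, which links HSP70 to HSP90, came next, with 345 CPM in flox 2, against 234 in flox 1, 211 in wt 1 and 167 in wt 2. Fkbp5, a cochaperone of steroid receptors, went the other way, with 152 CPM in flox 2, against 267, 281 and 244 in flox 1, wt 1 and wt 2. It was the 1 tested gene of 18 in this list at least 1.5-fold lower in flox 2 than in each other library, where 4.15% of all genes lay. Of the 5 genes past 1.5-fold, 2 (Bag3 and Dnaja4) held a core in a promoter window (40.0%), against 20 of 130 (15.4%) of the other list genes with a window.

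Most other classes were close to the other libraries. The median log2 ratio of flox 2 to the mean of the other 3 was 1.35 for the 10 chaperones, against -0.01 for all tested genes, whose central 95% ran from -1.83 to 0.91. It was 0.26 for the other HSP70 and HSP110 genes (7 tested), 0.10 for the other J-domain genes (28), 0.20 for HSP90 cochaperones (18) and 0.01 for exchange factors of HSP70 (11). Within those lists Hspa4, an HSP110 relative, had 280 CPM in flox 2, against 243 in flox 1, 244 in wt 1 and 212 in wt 2, and Hspa14 had 95.6 CPM, against 96.4, 96.4 and 84.3. Dnajb4, which had 74.3 CPM in flox 2, against 59.1 in flox 1, 41.0 in wt 1 and 33.9 in wt 2, had the smallest unadjusted p by label of all list genes and an adjusted p = 1.00 by edgeR.

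The cytosolic chaperonin TRiC, which folds actin and tubulin, was slightly higher in flox 2. All 8 of its subunit genes were highest there, against 26.1% of all tested genes, with a median log2 ratio of 0.21, and 0 passed 1.5-fold. This order was counted under TMM scaling only, and the smallest ratio was 1.02 for Cct5. Cct7 had the widest gap, with 410 CPM in flox 2, against 333 in flox 1, 329 in wt 1 and 319 in wt 2, and Cct5 one of the narrowest, with 276, against 249, 258 and 271. Prefoldin genes, which hand clients to TRiC, had a median of 0.10 (5 tested). Small heat shock genes had little expression, with 4 of 10 tested. Their median log2 ratio was 0.20, from -0.19 to 0.55, and 1 of the 4 was highest in flox 2. Hspb1, the lowest of them by this ratio, had 5.08 CPM in flox 2, against 9.63 in flox 1, 6.03 in wt 1 and 1.68 in wt 2.

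Mitochondrial chaperones other than the chaperonin pair had a median of -0.03 (15 tested). Hspa9, the mitochondrial HSP70, which both lists hold, had 213 CPM in flox 2, against 236 in flox 1, 250 in wt 1 and 189 in wt 2. Chaperones of the endoplasmic reticulum, which respond to the unfolded protein response, had a median of 0.05 (16 tested). Hspa5, which encodes BiP, had 1546 CPM in flox 2, against 1558 in flox 1, 1504 in wt 1 and 1318 in wt 2. Hsp90b1, the HSP90 of that compartment, had 640 CPM, against 600, 572 and 578 in flox 1, wt 1 and wt 2. In both compartments flox 2 lay within or close to the range of the other 3 libraries.

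Stress genes outside the chaperone system did not share the pattern. Genes of the unfolded protein and integrated stress responses had a median of -0.02 (13 tested), with 0 past 1.5-fold. Ddit3, which encodes CHOP, had 24.6 CPM in flox 2, against 23.2 in flox 1, 20.5 in wt 1 and 21.3 in wt 2. Oxidative and other stress genes had a median of -0.12 (16 tested). Hsf1 itself had 116 CPM in flox 2, against 100.4 in flox 1, 114 in wt 1 and 109 in wt 2.

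Immediate early genes, which handling of cells can raise, had a median log2 ratio of -0.32 (20 tested), and 2 of 20 were highest in flox 2, against 26.1% of all tested genes. Fos had 954 CPM in flox 2, against 1493 in flox 1, 1501 in wt 1 and 652 in wt 2, and Nr4a1 had 1828 CPM, against 3782, 3934 and 1784. For Fos and Nr4a1 flox 2 thus lay below flox 1 and wt 1. Jun and Klf6 were the 2 highest in flox 2, by a small margin, with 750.1 CPM for Jun in flox 2, against 725, 713 and 561 in flox 1, wt 1 and wt 2. Jund had 2638 CPM in flox 2, close to 2787 in flox 1 and 2644 in wt 1 and above 1697 in wt 2.

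**Figure D5:**
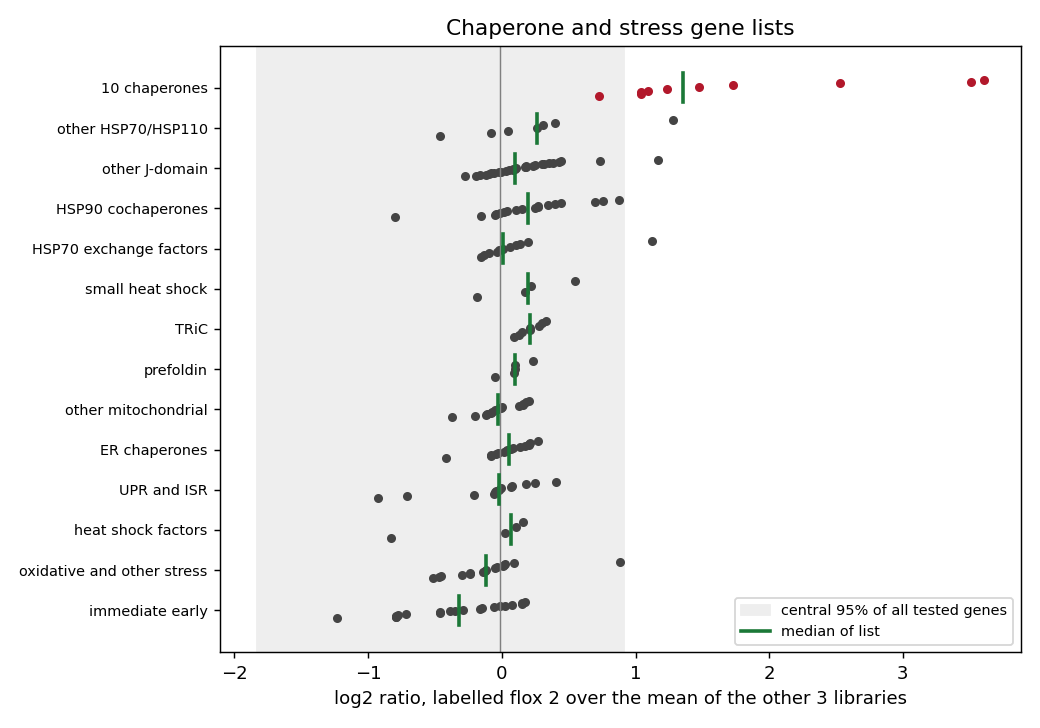
Log2 ratio of CPM in the library labelled flox 2 to the mean of the other 3 libraries; each point is a tested gene, green bars are list medians and the grey band spans the central 95% of all tested genes (-1.83 to 0.91). The 10 chaperones (red, median 1.35) lie to the right of the other lists, whose medians run from -0.32 for immediate early genes to 0.26 for other HSP70 and HSP110 genes.

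Markers of other cells were summed for each library. In bulk RNA, more cells of a type and more RNA per cell cannot be told apart. Summed epithelial markers (8 of 8 in the table) had 278 CPM in flox 2, against 356 in flox 1, 146 in wt 1 and 351 in wt 2. Summed myeloid markers (8 of 8) had 55.8 CPM in flox 2, against 101, 12.2 and 62.9 in flox 1, wt 1 and wt 2. Summed B cell markers (6 of 7) had 41.5 CPM, against 81.6, 44.1 and 51.9, and stromal and endothelial markers (6 of 6) had 67.1 CPM, against 80.7, 75.6 and 86.3. Pecam1 made up most of this last sum, with 63.9 CPM in flox 2, against 77.4, 74.3 and 82.7. Pdgfrb was the 1 marker of that list that was highest in flox 2, with 2.22 CPM, against 0.778, 0.146 and 1.29. The sum of markers of CD8 T and natural killer cells (6 of 6) was highest in flox 2, with 90.9 CPM, against 52.3 in flox 1, 46.0 in wt 1 and 70.9 in wt 2. Klrb1c was the 1 marker of the 6 that was highest in flox 2, with 68.5 CPM, against 21.3, 22.6 and 44.9. Cd8b1 was lowest in flox 2, with 12.1 CPM, against 16.6, 12.7 and 17.1, as was Tyrobp, with 0.484 CPM, against 2.46, 1.85 and 3.02. Ncr1 was at 0 in flox 2 and wt 2, and the part of these cells in the chaperone values was not tested. The summed markers of the sorted type (8 of 9) had 6519 CPM in flox 2, against 7365, 7604 and 5782. Of these 8 markers, 5 were highest in flox 2. Ctla4, a large part of the sum, had 2080 CPM in flox 2, against 3344, 3342 and 1627. Resting T cell markers (5 of 5) had 2184 CPM in flox 2, against 2288, 2678 and 1857. Among red cell markers 4 of 5 were at 0 in every library. Reads that the counter assigned to no gene made up 57.7% of the reads placed once in flox 2, against 57.3% in flox 1, 57.2% in wt 1 and 57.4% in wt 2.

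In the authors' deposited table of normalized values, which holds 10618 rows, all 10 chaperones were present and all 10 were highest in flox 2. Hspa1a had a normalized value of 19057 in flox 2, against 1742 in flox 1, 755 in wt 1 and 2214 in wt 2. The values of that table were made from the same counts and are no independent measurement.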

How the data were processed

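Counts per gene symbol were deposited by the authors for 4 libraries as a raw table of 24061 gene rows and 5 counter summary rows. The summary rows held 66.6% to 67.2% of the column totals and were left out. The tools named are edgeR 3.14, HTSeq 0.6.1 and TopHat2 2.1.1, with build mm10, per the submitters' processing notes. Their settings, the annotation and whether counting used strand are not stated in the sources used here. A second, shorter table deposited by the authors holds normalized values, a signal that is never negative, and was only described.

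Chaperones, lists and tests were chosen with earlier results of these data known. Counts were analysed in R 4.3.3 with edgeR 4.0.16: filterByExpr, TMM scaling, then glmQLFit (robust) and glmQLFTest for labelled flox against labelled wt, with Benjamini-Hochberg adjustment at 0.05. Standard errors were taken as the absolute log2 fold change over the square root of F. A comparison of 2 libraries with 2 cannot give a two-sided exact permutation p below 0.333, so none was run. All p-values rest on the spread between these libraries alone, which may be technical. Fold counts set libraries under 3 counts to 3 counts (0.123 to 0.148 CPM). Coordinates and transcript lengths came from GENCODE M21 (mm10) and promoter windows from RefSeq.

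Genes named were the 10 members, Maf, up to 3 genes with the largest and 2 with the smallest ratio per list (mean log2 CPM of at least 3), and 10 genes outside the lists. A few others (Hspa5, Hsp90b1, Fos, Hspb1 and the marker genes) were chosen after their values were seen. Alternatives used DESeq2 1.42.0, limma 3.58.1, other scalings, filters and folds, leaving out single libraries, and the replicate number as a block. The scripts were tested on simulated data.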

Additional observations from a re-analysis of the deposited data

How the results depend on the processing

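By genotype label, the count of called genes was 1 and became 2 with no filter on low counts, 12 with DESeq2, 12 with edgeR's likelihood ratio test, 0 with limma-voom (262 at an unadjusted p under 0.05) and 0 to 0 when 1 library was left out; 0 of the 10 chaperones passed in any of these. Without flox 2, DESeq2 called 8 genes in place of 0, again with 0 chaperones among them. The sign of the log2 fold change held for 9 of the 10 chaperones under all 14 alternatives. The exception was Hsp90ab1, at -0.040 without the library labelled flox 2, within a range over left-out libraries of -0.040 to 0.71. For Hspa1a that range was 0.22 to 3.78. Only the alternative without flox 2 leaves out the library on which the genes were chosen. The sign under the rest thus follows in large part from that choice. The lowest adjusted p of any chaperone was 0.108, for Hsph1 without the library labelled flox 1.

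The labels do not say that the replicate numbers mark a shared litter, batch or day. Deviations from the group means correlated across genes between libraries of the same number (r = 0.363). The value is the same for both pairs by construction with 2 libraries a group. Both libraries of number 1 had high Maf (2975 counts in flox 1 and 3071 in wt 1). Both of number 2 had low Maf (15 counts in flox 2 and 40 in wt 2). The replicate number and the Maf level thus cannot be told apart here. With the replicate number as a block, edgeR called 1 gene, 515 had an unadjusted p under 0.05, and 0 chaperones were called, with Hspa1a at a log2 fold change of 2.18.

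Genes at least 2-fold higher in flox 2 than in each other library numbered 83, and 206 with no filter, 254 at 1.5-fold, 23 at 3-fold, and 191, 121 and 242 without flox 1, wt 1 and wt 2. Genes at least 2-fold lower numbered 274, and 159 at a mean CPM of at least 1, 540 at 1.5-fold, 121 at 3-fold and 334, 451 and 561 without flox 1, wt 1 and wt 2. For the chaperones the count was 6, and 10 at 1.5-fold and 6 to 9 with 1 compared library left out (9 without flox 1). Other lists with a member past the fold numbered 4 at 1.5-fold, 2 at 2-fold and 0 at 3-fold. Without the 100 most abundant genes the chaperone share was 0.814% in flox 2, against 0.252% in flox 1, 0.192% in wt 1 and 0.227% in wt 2. Depth limits the small heat shock genes, of which 6 of 10 were not tested.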

Other observations

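Outside the lists, and among genes that averaged a log2 CPM of 3 or more and are not predicted genes, pseudogenes or receptor segments, the 10 with the highest value for the smallest of the 3 ratios of flox 2 to another library were Paip1, Prox1, Ccdc80, Trf, Wisp1, Litaf, Filip1l, Gtf2ird1, Heyl and Fbxo17. Paip1, a partner of the poly(A)-binding protein, had 49.6 CPM in flox 2, against 11.1 in flox 1, 10.9 in wt 1 and 11.0 in wt 2, the most even background of the 10. Trf, which encodes transferrin, had 483 CPM in flox 2, against 168, 135 and 144 in flox 1, wt 1 and wt 2. Litaf had 301 CPM in flox 2, against 114, 75.3 and 103, and Wisp1, a matricellular protein, had 171 CPM, against 59.9, 29.1 and 63.4 in the same libraries. Heyl, a target of Notch signalling, had 85.7 CPM in flox 2 and 45.5 CPM in wt 2, against 13.1 in flox 1 and 10.4 in wt 1, so its order across the libraries was the reverse of that of Maf. Prox1, Ccdc80 and Wisp1 ran in the same order, and the remaining genes of the 10 did not. First place for flox 2 follows from the choice of these genes. The share of all tested genes in this order was not counted, and nothing is read from it. The 10 were chosen by this ratio, and no test was made of them as a set.

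Hspa1l, the third HSP70 gene of the same cluster on chromosome 17, did not pass the filter on low counts and had 31 counts in flox 2, against 9 in flox 1, 3 in wt 1 and 9 in wt 2. Its coding sequence is 83.3% identical to that of Hspa1a.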
